A study of Mus musculus with 24 samples.

Results

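Wild-type (WT) mouse embryonic fibroblasts (MEFs) treated with MK-8722 were compared to the same cells given the vehicle DMSO. MK-8722 is a small molecule that binds the allosteric drug and metabolite site of AMP-activated protein kinase (AMPK) and activates the kinase directly. The comparison used the 8 libraries of 24 in the series that were labelled wild type and either MK8722 or DMSO, 4 of each, and it covered all genes measured. Libraries of both WT groups were labelled with passages 7, 8, 9 and 11, so that each vehicle library had a treated library of the same passage. The study also sequenced WT MEFs given torin1, an inhibitor of the kinase MTOR, and MEFs lacking the transcription factors TFEB and TFE3 (*tfeb tfe3* DKO), and those libraries are used below only where they show how the MK-8722 response differed. All groups were untransfected MEFs grown in DMEM with fetal bovine serum and carried no other labelled allele or agent, and the DKO libraries were of passages 8, 9, 10 and 11. Cells received 10 µM MK-8722 or 0.1% DMSO, and the treatment time of the sequenced cells is not given in the sources used here. Both genotypes came as established MEF lines from another laboratory, and nothing says that the passages of a genotype were separate derivations, so the p-values measure the spread between passages. AMPK-deficient cells were not analysed here, so actions of MK-8722 through AMPK and by other routes cannot be told apart.

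AMPK is a heterotrimer of a catalytic alpha, a scaffolding beta and a nucleotide-binding gamma subunit, and it is switched on when cellular ATP runs low. It inhibits anabolic enzymes by phosphorylation, restrains the growth-promoting kinase complex MTORC1 and favours autophagy and lysosomal function. TFEB, TFE3 and MITF are basic helix-loop-helix factors that are held in the cytoplasm when MTORC1 phosphorylates them. Once dephosphorylated they enter the nucleus and bind the CLEAR element (coordinated lysosomal expression and regulation) in the promoters of lysosomal genes.

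Each of the 8 libraries held between 25185165 and 33332562 estimated counts (median 28394504), RNA integrity numbers were 9.8 or 9.9, and the mitochondrially encoded share was 0.9336 to 1.265% of counts in 7 libraries and 0.6933% in the DMSO library of passage 11. Over the 8 libraries, the first principal component held 34.1% of the variance and set the passage 11 libraries of both treatments apart, and the second held 28.4% and separated MK-8722 from DMSO. Interferon-stimulated genes were the clearest mark of passage 11: the 40 tested members of this list summed to 854.9 to 1377 CPM (read counts scaled to the library size) in the libraries of passages 7, 8 and 9, and to 5477 CPM with DMSO and 6280 CPM with MK-8722 at passage 11. Fibroblast markers were present in all libraries. Of 12 such markers, 11 exceeded 1 CPM, and their sum ranged from 6940 to 10200 CPM with DMSO and from 6890 to 9720 CPM with MK-8722, with 0 of 11 tested members called. With passage as a block 2 were downregulated, and 1 was without the DMSO library of passage 7 or the MK-8722 library of passage 11.

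MK-8722 upregulated 1583 genes and downregulated 904 of the 15401 genes tested, which is 10.3% and 5.87% (edgeR's quasi-likelihood test, p adjusted by Benjamini-Hochberg under 0.05, with the fold change 1.2 or more). The rises were the larger changes. A fold change of at least 2 was reached by 239 upregulated and 77 downregulated genes, and a fold change of at least 4 by 26 and 8. The median upregulated gene rose 1.4-fold, and the median downregulated gene was 1.32-fold lower with MK-8722, while the median log2 fold change of all genes tested was -0.0146. Among the upregulated genes 94.7% were protein coding, compared to 89.7% of the downregulated genes and 83.5% of all genes tested. The 4 treated libraries did not overlap the 4 vehicle libraries for 1404 upregulated genes (88.7%) and 732 downregulated genes (81%), while 15% of all genes tested lay without overlap on the higher side and 14.8% on the lower side.

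**Figure D1:**
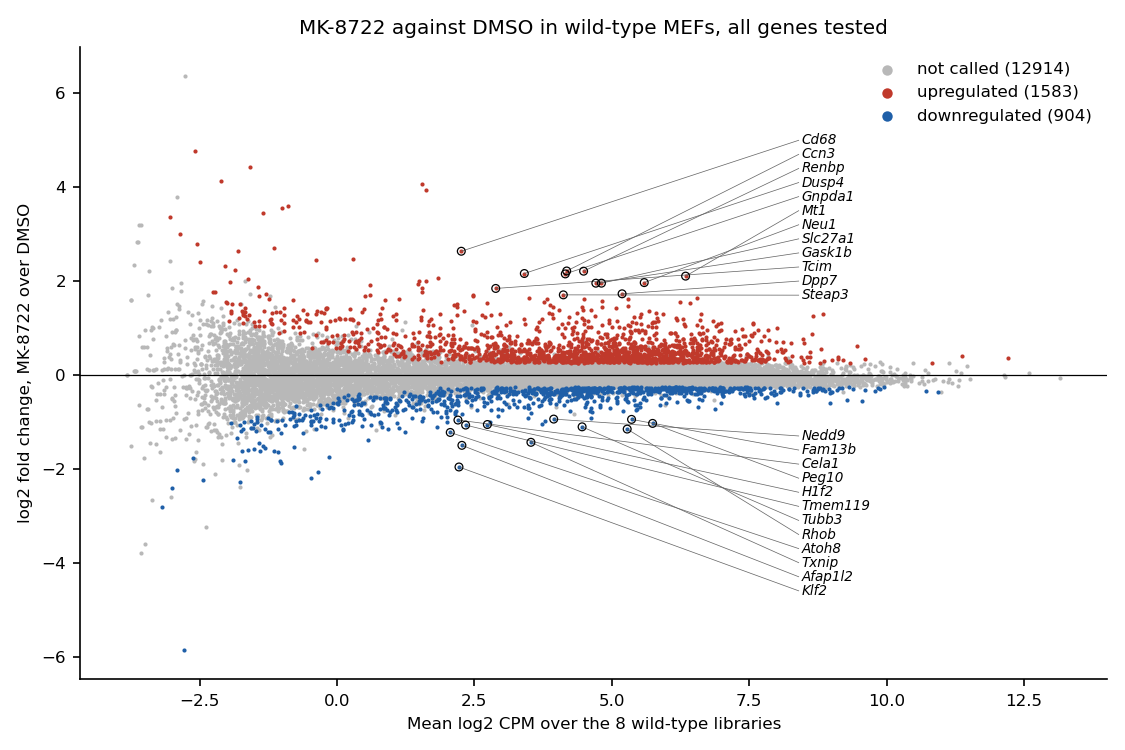
Each point is 1 of the 15401 genes tested, with the mean log2 CPM over the 8 WT libraries on the horizontal axis and the log2 fold change of MK-8722 over DMSO on the vertical axis. The 1583 upregulated genes are red and the 904 downregulated genes blue. Circled and named are the 12 largest rises and 12 largest falls among genes averaging at least 2 log2 CPM over the 8 libraries, without overlap between groups. They run from *Cd68* at 2.64 to *Klf2* at -1.96.

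The largest rise among genes averaging at least 2 log2 CPM over the 8 libraries, whose groups did not overlap, was that of *Cd68* (chr11:69664213-69666153, minus strand). It encodes a heavily glycosylated lysosomal membrane protein best known from macrophages. In the order of passages 7, 8, 9 and 11, as in all lists of library values below, it stood at 2, 2.24, 1.84 and 1.54 CPM with DMSO and 10.3, 14.3, 12.6 and 10.1 CPM after MK-8722. Every treated library lay far above every vehicle library, and the fold change was 6.22 (log2 fold change 2.64 ± 0.20, adjusted p = 5.32e-10; log2 fold changes are given with their SE and levels as mean ± SD over 4 libraries). *Ccn3*, a secreted matricellular protein, rose from 8.46 ± 1.13 to 39.3 ± 7.5 CPM (2.22 ± 0.13 log2, adjusted p = 1.45e-11). *Renbp*, an epimerase of N-acetylglucosamine, rose from 10.4 ± 1.31 to 48.3 ± 5.52 CPM (2.21 ± 0.10 log2). *Gnpda1*, the deaminase of glucosamine 6-phosphate, held a narrow spread in both groups, with 8.09, 8.44, 8.65 and 8.46 CPM with DMSO and 33.6, 36.4, 39.2 and 40.4 CPM after MK-8722. Its treated libraries all exceeded the highest vehicle library, and it rose 4.45-fold (log2 fold change 2.15 ± 0.08, adjusted p = 1.33e-14).

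The metal-binding metallothionein *Mt1* was the most abundant of these genes, at 43.6, 41.7, 37.3 and 34.2 CPM with DMSO and 165, 177, 182 and 151 CPM after MK-8722. All 4 treated libraries stood above all 4 vehicle libraries (log2 fold change 2.11 ± 0.08, adjusted p = 8.68e-15). *Dusp4*, a nuclear phosphatase that inactivates ERK, rose 4.47-fold, *Neu1*, the lysosomal sialidase, 3.91-fold, and *Slc27a1*, a fatty acid transport protein, 3.88-fold. The Golgi-associated protein *Gask1b* rose from 13.4 ± 1.99 to 52.2 ± 13 CPM, and the regulator *Tcim* from 3.89 ± 0.679 to 14 ± 0.767 CPM. *Dpp7*, a lysosomal dipeptidyl peptidase, rose from 20 ± 1.37 to 66.3 ± 4.45 CPM, and *Steap3*, an endosomal ferrireductase, from 9.62 ± 0.93 to 31.4 ± 4.21 CPM. In all 12 of these genes the treated and vehicle libraries were without overlap, as the choice of genes required.

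*Klf2*, a zinc finger transcription factor known from endothelial cells and lymphocytes, fell the most of the genes at that mean level whose groups did not overlap (chr8:72319033-72321656, plus strand). Its libraries held 7.56, 9.22, 8.62 and 10.9 CPM with DMSO and 2.45, 2.52, 2.3 and 2.04 CPM after MK-8722. The lowest vehicle library was thus well above the highest treated library, and *Klf2* was 3.89-fold lower with MK-8722 (log2 fold change -1.96 ± 0.14, adjusted p = 4.46e-10). *Afap1l2*, an adaptor of the actin cytoskeleton and of tyrosine kinases, fell from 8.11 ± 1.46 to 2.87 ± 0.595 CPM (-1.50 ± 0.21 log2). *Txnip*, which binds thioredoxin and limits glucose uptake, stood at 24, 15.3, 15.7 and 23.6 CPM with DMSO and 9.96, 5.39, 4.12 and 9.82 CPM after MK-8722. The vehicle libraries of passages 7 and 11 and the treated libraries of passages 7 and 11 were the higher in their groups, and the groups stayed apart (log2 fold change -1.44 ± 0.26, adjusted p = 0.000145).

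Among the other large falls, the basic helix-loop-helix factor *Atoh8* went from 6.33 ± 0.891 to 2.7 ± 0.507 CPM and the endosomal GTPase *Rhob* from 58 ± 3.86 to 26.1 ± 2.73 CPM. *Rhob* varied little, with 55.9, 57.2, 55.2 and 63.6 CPM with DMSO and 27.1, 24.3, 23.5 and 29.4 CPM after MK-8722. The beta-tubulin gene *Tubb3* fell from 32.7 ± 5.72 to 15.2 ± 3.25 CPM, the transmembrane protein gene *Tmem119* from 7.44 ± 2.37 to 3.54 ± 0.86 CPM, and the linker histone gene *H1f2* from 9.77 ± 3.21 to 4.71 ± 1.26 CPM. The passage 11 vehicle library gave the highest value of *H1f2*, 14.5 CPM against 7.56 to 8.55 CPM in the other vehicle libraries. The imprinted, retrotransposon-derived gene *Peg10* fell from 76.6 ± 8.47 to 37.5 ± 1.65 CPM (log2 fold change -1.03 ± 0.10, adjusted p = 4.97e-08). *Cela1*, a pancreatic-type elastase, *Fam13b*, a protein with a GTPase-activating domain, and *Nedd9*, a scaffold of focal adhesions, had log2 fold changes of -0.96 ± 0.14, -0.95 ± 0.10 and -0.94 ± 0.15. For these falls too, the absence of overlap between treated and vehicle libraries was required by the choice of genes.

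**Figure D2:**
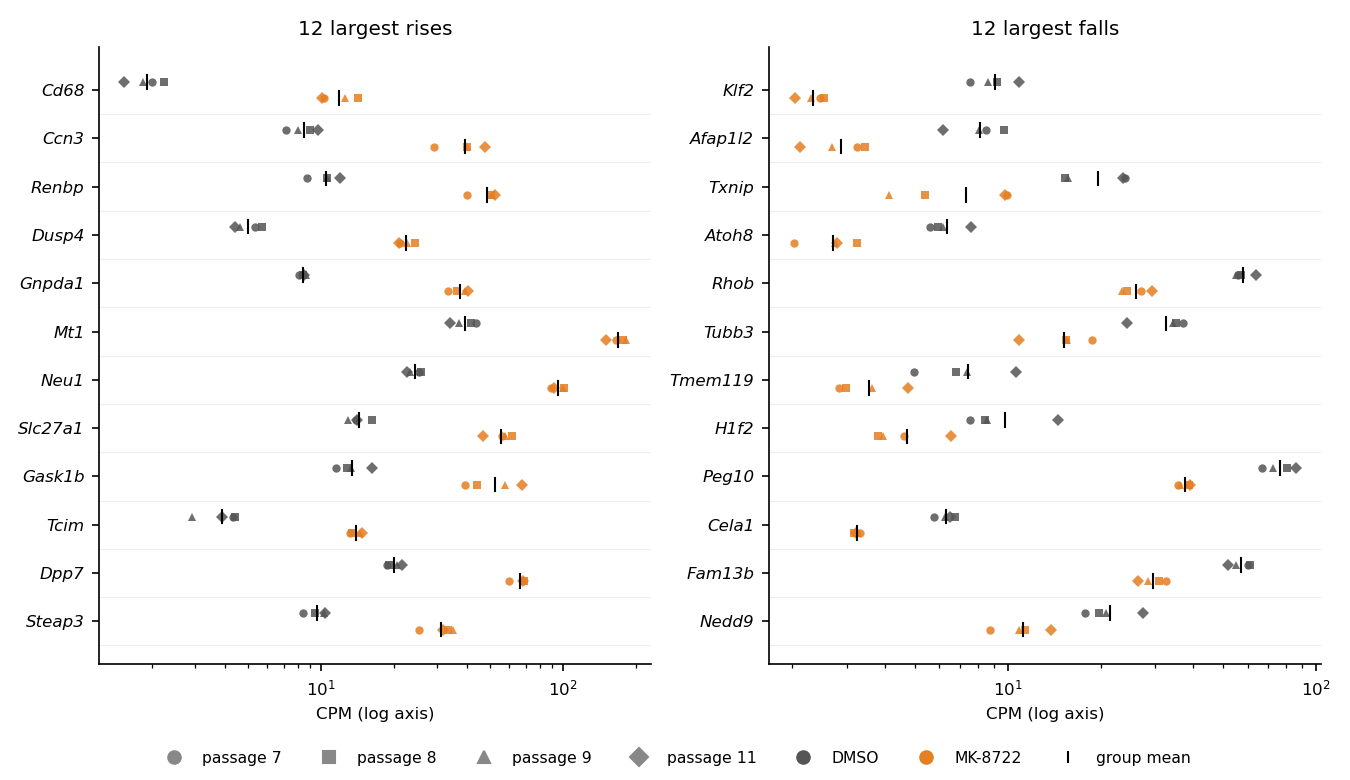
CPM on a log axis for the 12 largest rises (left) and 12 largest falls (right), with DMSO libraries in grey, MK-8722 libraries in orange, a symbol for each passage and a bar at each group mean (n = 4). Treated and vehicle libraries lie on separate sides for all 24 genes, as the choice of genes required, from *Cd68* (1.9 to 11.8 CPM on average) to *Nedd9* (21.5 to 11.2 CPM).

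The CLEAR core, an 8-base palindrome written TCACGTGA, was looked for in the 300 bases around RefSeq start sites (250 before and 50 after, GRCm38.p6), which were held for 10577 of the 15401 genes tested. Shown here, 5′ to 3′ on the gene's strand with the CLEAR core in capitals, are stretches before start sites. They include 3 of the upregulated genes with the largest rises whose window held the core before the start site, *Dpp7* (chr2:25356360-25356452, minus strand), *Crebrf* (chr17:26715478-26715577, plus strand) and *Amdhd2* (chr17:24163739-24163768, minus strand). These 3 were taken among genes of at least 2 log2 CPM without overlap between the groups. For contrast, *Cd68* (chr11:69666171-69666270, minus strand) and *Klf2* (chr8:72318962-72319032, plus strand) are shown, whose stretches hold none.
Dpp7: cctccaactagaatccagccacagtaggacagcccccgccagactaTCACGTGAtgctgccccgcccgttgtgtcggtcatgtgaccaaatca
Crebrf: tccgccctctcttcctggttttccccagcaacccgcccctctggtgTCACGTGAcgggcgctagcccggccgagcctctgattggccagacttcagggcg
Amdhd2: tcagctgagagTCACGTGAtgcgacctggc
Cd68: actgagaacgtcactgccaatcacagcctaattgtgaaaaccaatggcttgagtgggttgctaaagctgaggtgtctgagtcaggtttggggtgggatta
Klf2: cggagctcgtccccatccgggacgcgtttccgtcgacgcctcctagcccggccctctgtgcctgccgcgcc

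The core ended 66 bases before the RefSeq start site in *Dpp7*, 118 before it in *Crebrf* and 16 before it in *Amdhd2*. Among the 12 largest rises named above, *Dpp7* alone held the core in a window, and *Ccn3*, *Dusp4*, *Gnpda1* and *Tcim* had no window. *Crebrf*, a regulator of the CREB3 transcription factors, rose from 7.94 ± 0.853 to 23.2 ± 1.26 CPM (log2 fold change 1.54 ± 0.08, adjusted p = 2.57e-12), and *Amdhd2*, a deacetylase of N-acetylglucosamine 6-phosphate, from 13.3 ± 0.73 to 36.2 ± 4.58 CPM (log2 fold change 1.44 ± 0.09, adjusted p = 2.5e-11). A window with the core was found for 6.82% of upregulated genes (80 of 1173 with a window), 0.741% of downregulated genes (5 of 675), 2.16% of all genes tested and 1.12% of all genes with a window. It was found for 3 of 14 V-ATPase genes (21.4%), 4 of 20 genes of lysosomal membrane proteins (20%) and 3 of 35 genes of lysosomal hydrolases (8.57%). None of 18 genes of sterol synthesis and uptake held it, whereas 17 of them (94.4%) held the letters CCAAT on either strand, compared to 43.5% of all genes tested. CCAAT was 1 of several motifs looked for. The sterol regulatory element TCACNCCAC (N is any base) was found for 1 of the 18 (5.56%), compared to 1.35% of all genes tested. The E-box CACGTG, which lies inside the CLEAR core, was in the windows of 22.7% of upregulated, 7.56% of downregulated and 11.6% of all tested genes. Of the 18 sterol genes 5 (27.8%) held it. These shares describe letters in fixed windows and were not tested.

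Of the AMPK genes themselves, transcripts of most subunits changed little. The list of 14 AMPK subunits and upstream kinases had 3 members upregulated (21.4%) and 1 downregulated (7.14%), with a median log2 fold change of -0.0262. Of all genes tested, 10.3% were upregulated and 5.87% downregulated, and every list count below is to be read beside these shares. Measured per length, the dominant catalytic subunit *Prkaa1* was at 35.8 ± 1.3 TPM with DMSO and 36.2 ± 1.16 TPM with MK-8722 (a level scaled by transcript length and library size), and the minor *Prkaa2* at 0.589 ± 0.146 TPM with DMSO and 0.984 ± 0.0829 TPM with MK-8722. *Prkaa2* counted 4.21, 2.99, 2.83 and 2.38 CPM with DMSO and 5.61, 5.12, 4.67 and 4.69 CPM after MK-8722. Each treated library exceeded each vehicle library (log2 fold change 0.69 ± 0.14, adjusted p = 0.000526). The beta subunit *Prkab2* also rose (log2 fold change 0.36 ± 0.07, adjusted p = 0.000642) and was at 5.2 ± 0.857 TPM with DMSO and 6.8 ± 0.453 TPM with MK-8722. The more abundant *Prkab1*, at 60.1 ± 6 TPM with DMSO and 52.6 ± 5.87 TPM with MK-8722, and the gamma subunits *Prkag1* and *Prkag2* passed the adjusted p but not the fold threshold, with log2 fold changes of -0.25 ± 0.07, -0.22 ± 0.05 and -0.26 ± 0.08. *Prkag3* was called lower at -0.72 ± 0.27 log2 (adjusted p = 0.0474) from only 2.13 ± 0.212 CPM, and the call was lost when any 1 of the 8 libraries was left out, with adjusted p between 0.05 and 0.113. *Prkab1* crossed the fold threshold without the MK-8722 library of passage 7 or 8 or the DMSO library of passage 9 or 11 (-0.2635 to -0.3197 log2). *Prkag1* did so without the MK-8722 library of passage 8 (-0.269 log2), and *Prkag2* without the MK-8722 library of passage 7 or 8 or the DMSO library of passage 7 (-0.2651 to -0.3074 log2). Of the whole list 0 members were downregulated without the DMSO library of passage 8 or the MK-8722 library of passage 9 or 11, 2 without the MK-8722 library of passage 7 and 3 without that of passage 8. *Stradb*, a pseudokinase partner of the upstream kinase LKB1, rose by 0.29 ± 0.06 log2.

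The 3 transcription factor genes fell while the genes of the Folliculin complex, which acts on the Rag GTPases that bring TFEB to MTORC1, rose. Of 10 tested members of this list, 6 were upregulated and 3 downregulated (median log2 fold change 0.766), and these counts were the same in each of the 8 single-library omissions. *Tfeb* went from 22.9 ± 1.74 to 17.5 ± 1.59 CPM (log2 fold change -0.39 ± 0.08, adjusted p = 0.000476), *Tfe3* from 120 ± 1.17 to 98.5 ± 2.9 CPM (log2 fold change -0.29 ± 0.03, adjusted p = 2.69e-07) and *Mitf* from 9.8 ± 1.03 to 5.9 ± 0.696 CPM (log2 fold change -0.73 ± 0.14, adjusted p = 0.000428). In none of the 3 did a treated library reach a vehicle library, as was so for 81% of all downregulated genes. *Fnip1*, a binding partner of Folliculin, was at 23.2, 23.4, 24.7 and 23.2 CPM with DMSO and 66.3, 62.4, 67 and 65.3 CPM after MK-8722, a narrow rise of 2.76-fold (log2 fold change 1.46 ± 0.04, adjusted p = 7.38e-17). *Flcn*, encoding Folliculin, was 2.56-fold higher, *Fnip2* 2.19-fold, and *Rragd*, a Rag GTPase gene, 3.82-fold from a low level of 1.39 ± 0.318 CPM.

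Of the 34 gene lists, the 3 lysosomal lists had the largest shares of members upregulated. Of 19 tested subunits and accessory proteins of the V-ATPase, the proton pump that acidifies lysosomes, 16 were upregulated (84.2%) and 0 downregulated (median log2 fold change 0.56). *Atp6v0b* of the membrane sector was at 44.2, 44.7, 44.9 and 43.2 CPM with DMSO and 126, 132, 135 and 126 CPM after MK-8722. Libraries of a group were close to each other and the groups far apart, a rise of 2.93-fold (log2 fold change 1.55 ± 0.06, adjusted p = 1.26e-14). *Atp6v1d* of the catalytic sector rose 2.47-fold, the accessory protein *Atp6ap2* 2.34-fold and *Atp6v0d1* 2.09-fold. The 3 members not called were *Atp6v0a2* (0.14 ± 0.03), *Atp6v0e2* (0.03 ± 0.10) and *Atp6v1g2* (-0.13 ± 0.14). Summed over the list, vehicle libraries held 1383 to 1437 CPM and treated libraries 2127 to 2264 CPM.

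Among 45 lysosomal hydrolases and their activators, 29 were upregulated and 0 downregulated (median 0.509). *Neu1* stood at 25.4, 26, 23.3 and 22.7 CPM with DMSO and 88.7, 101, 99.9 and 91.6 CPM after MK-8722. *Gla*, the alpha-galactosidase, rose 2.37-fold (log2 fold change 1.24 ± 0.09, adjusted p = 4.68e-10), *Tpp1*, a tripeptidyl peptidase, 2.27-fold (log2 fold change 1.18 ± 0.07, adjusted p = 1.13e-11) and *Hexa*, a beta-hexosaminidase subunit, 2.32-fold (log2 fold change 1.22 ± 0.07, adjusted p = 1.14e-11). The carboxypeptidase *Ctsa*, which protects NEU1, was at 130, 130, 126 and 136 CPM with DMSO and 255, 288, 292 and 286 CPM after MK-8722, with passage 7 the lowest of the treated libraries and still above all vehicle libraries (log2 fold change 1.10 ± 0.07, adjusted p = 1.39e-11). Values of *Lipa*, the acid lipase, were 33.3 ± 3.92 CPM with DMSO and 36.2 ± 3.17 CPM with MK-8722 and did not pass the test (adjusted p = 0.315). The sphingomyelinase *Smpd1* (0.09 ± 0.06) and the GM2 activator *Gm2a* (-0.13 ± 0.05) did not pass it either. Counted over the 8 omissions of 1 library, 29 or 30 hydrolases were upregulated.

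Genes of lysosomal membrane proteins gave 17 of 23 members upregulated and 0 downregulated (median 0.627). *Gpnmb*, a glycoprotein of melanosomes and lysosomes, rose from near the detection limit, at 0.769, 1.05, 0.443 and 0.813 CPM with DMSO and 10.7, 14.7, 11.6 and 10.3 CPM after MK-8722. Its 15.4-fold rise was the largest of the list (log2 fold change 3.95 ± 0.30, adjusted p = 8.68e-10). *Ctns*, the cystine exporter, rose 3.07-fold, *Mcoln1*, a lysosomal calcium channel, 2.44-fold and *Npc1*, which moves cholesterol out of lysosomes, 2.19-fold. *Npc2*, the soluble partner of NPC1, was at 126, 128, 136 and 230 CPM with DMSO and 169, 179, 189 and 285 CPM after MK-8722 and was not called (adjusted p = 0.0963). Both passage 11 libraries were the highest of their group for *Npc2*. Without the DMSO library of passage 11 its log2 fold change was 0.6591 and it was called (adjusted p = 0.00361), and with passage as a block it was called at 0.4194. *Sidt2*, a lysosomal nucleic acid transporter, was at -0.11 ± 0.04 log2 and not called.

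Autophagy genes moved less as a group. Of 45 core genes and receptors, 12 were upregulated (26.7%) and 0 downregulated, and the median was 0.0465. *Sqstm1*, encoding the receptor p62, rose from 296 ± 27.4 to 542 ± 48.4 CPM (log2 fold change 0.87 ± 0.11, adjusted p = 2.88e-06). *Tecpr1*, which links autophagosomes to lysosomes, rose 1.81-fold, and the ubiquitin-like proteins *Map1lc3b* and *Gabarap* rose 1.49-fold and 1.48-fold. Vehicle and treated libraries did not overlap for any of these 4 genes, as was so for 88.7% of all upregulated genes.

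**Figure D3:**
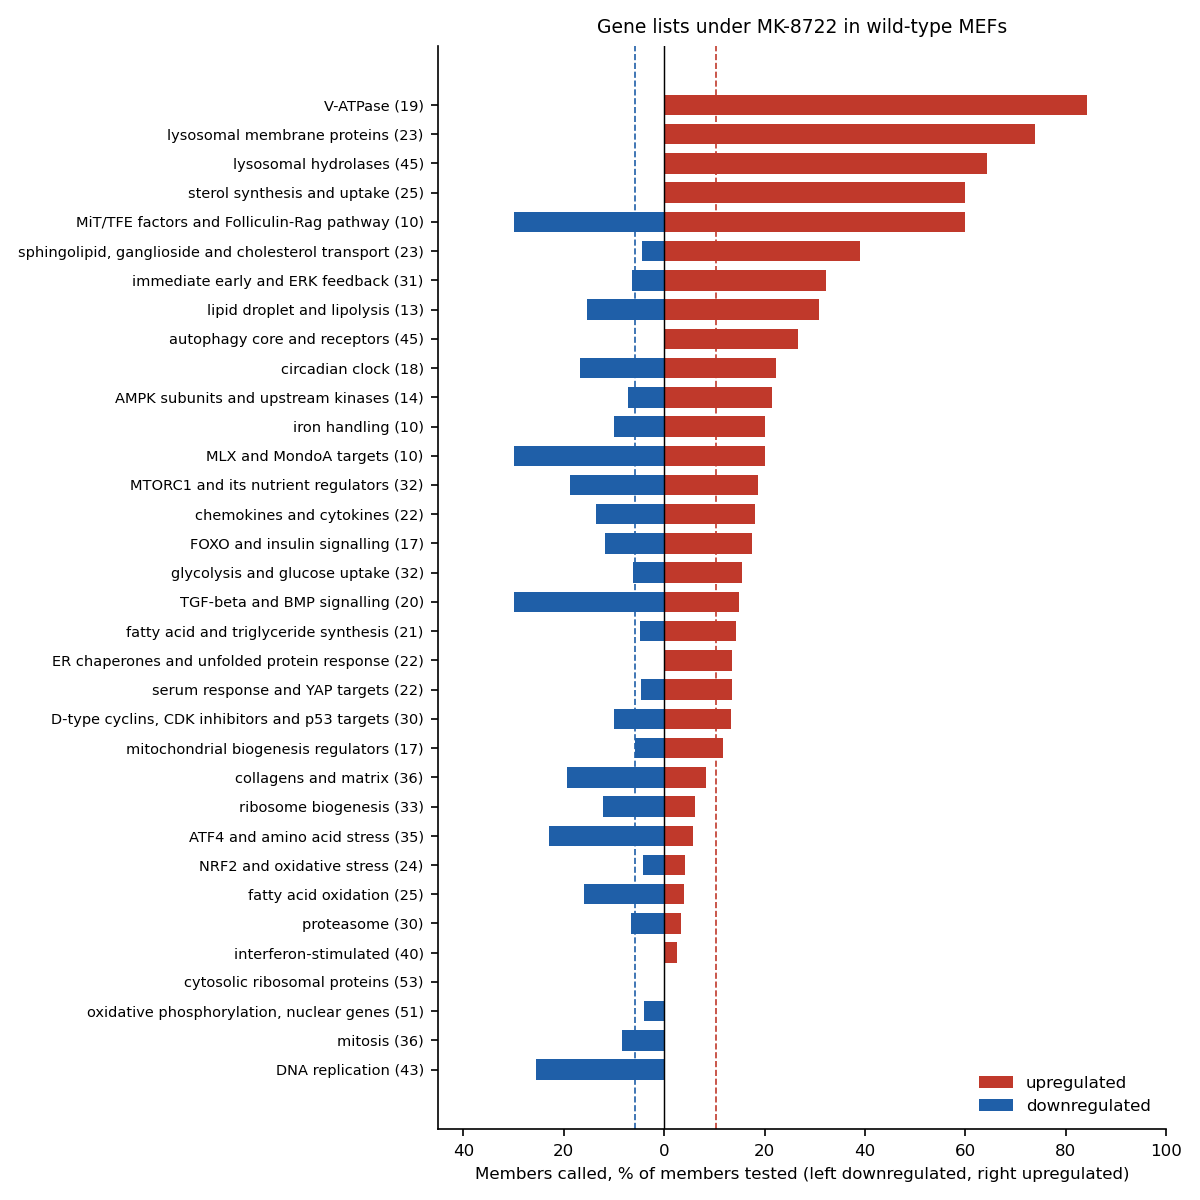
Percent of tested members upregulated (red, right) and downregulated (blue, left) with MK-8722 in WT MEFs for 34 gene lists, with the number tested in parentheses. Dashed lines mark the 10.3% of all genes upregulated and the 5.87% downregulated, and V-ATPase genes lead with 16 of 19 upregulated.

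Of 32 genes of MTORC1 and its nutrient regulators, 6 were upregulated and 6 downregulated (18.8% each, median 0.0125). Of all genes tested 10.3% were upregulated and 5.87% downregulated. The lysosomal anchors of the Rag GTPases *Lamtor3* (log2 fold change 0.60 ± 0.04, adjusted p = 5.26e-10) and *Lamtor1* (log2 fold change 0.53 ± 0.04, adjusted p = 1.45e-10) rose, as did *Tsc1* (log2 fold change 0.45 ± 0.05, adjusted p = 9.43e-07), part of the complex that inhibits the MTORC1 activator RHEB. *Ddit4*, an inhibitor of MTORC1 induced by stress, was at 44.6, 46.7, 52.9 and 58.9 CPM with DMSO and 32, 33.8, 36.5 and 38.3 CPM after MK-8722, with the vehicle libraries all above the treated ones (log2 fold change -0.53 ± 0.12, adjusted p = 0.00111). Its relative *Ddit4l* fell at 0.906 ± 0.226 CPM (-1.25 ± 0.34), and *Sesn3*, a sestrin, was 1.41-fold lower (log2 fold change -0.50 ± 0.09, adjusted p = 0.000273). *Mtor* itself was at 72.3 ± 1.16 and 72.8 ± 2.47 CPM and was not called. Between 3 and 7 members were downregulated when 1 library was left out, with 3 without the DMSO library of passage 9.

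Of 35 genes of the ATF4 pathway and amino acid supply, 2 were upregulated (5.71%) and 8 downregulated (22.9%), beside 10.3% and 5.87% of all genes tested (median -0.276). The 2 that rose were *Ddit3* (log2 fold change 1.22 ± 0.20, adjusted p = 4.97e-05), the stress-induced factor CHOP, and *Ppp1r15a* (log2 fold change 0.56 ± 0.09, adjusted p = 3.71e-05), the phosphatase subunit GADD34. *Slc7a5*, a transporter of large neutral amino acids, was at 665, 532, 654 and 629 CPM with DMSO and 512, 334, 366 and 423 CPM after MK-8722, the treated libraries all lower (log2 fold change -0.60 ± 0.17, adjusted p = 0.00744). *Psat1* of serine synthesis fell from 920 ± 113 to 624 ± 134 CPM (log2 fold change -0.56 ± 0.11, adjusted p = 0.000574), with overlap between the groups. The cystine transporter *Slc7a11* was called lower at -0.97 ± 0.34 log2 (adjusted p = 0.0342) and lost the call without the DMSO library of passage 7 or 9 or the MK-8722 library of passage 8 or 9 (-0.8017 to -0.9596). *Atf4* held 513 ± 29.8 and 492 ± 25.9 CPM and was not called. The number downregulated moved from 2 to 14 when 1 library was left out (DMSO of passage 7 or 9 and MK-8722 of passage 7, 8 or 9 moved it by more than 1.5 times), and it was 16 with passage as a block.

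In the FOXO and insulin signalling list, 3 of 17 members rose (17.6%) and 2 fell (11.8%), beside 10.3% and 5.87% of all genes tested. *Irs2*, the insulin receptor substrate, rose 1.35-fold (log2 fold change 0.44 ± 0.07, adjusted p = 5.77e-05) and *Fbxo32*, the ubiquitin ligase atrogin-1, 1.33-fold (log2 fold change 0.41 ± 0.10, adjusted p = 0.00203). *Ccng2*, an atypical cyclin, was called lower (log2 fold change -0.44 ± 0.15, adjusted p = 0.0279) with overlapping groups, and was not called without the DMSO library of passage 9 or 11 or the MK-8722 library of passage 7 or 11 (adjusted p = 0.062 to 0.101). The list then had between 0 and 2 members downregulated, moved by the same 4 libraries and by the MK-8722 library of passage 9.

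Genes of sterol synthesis and uptake rose together. Of 25 members, 15 were upregulated (60%) and 0 downregulated, with a median log2 fold change of 0.482. *Insig1*, which retains the sterol sensor SCAP in the endoplasmic reticulum, stood at 15.9, 25.4, 21.7 and 30.1 CPM with DMSO and 38, 75, 81.5 and 92.5 CPM after MK-8722. Passage 7 was the lowest library in both groups, and every treated library exceeded every vehicle library (log2 fold change 1.63 ± 0.24, adjusted p = 1.64e-05). *Msmo1*, a sterol demethylase, rose 1.84-fold and *Hmgcs1*, which makes HMG-CoA, 1.73-fold, the latter with overlap between groups. The summed level of the list was 1506 CPM with DMSO and 1826 CPM with MK-8722 at passage 7, and 1819 to 2049 CPM and 2604 to 2843 CPM at the other passages. The master regulator *Srebf2* did not pass the test (0.25 ± 0.10, adjusted p = 0.0543) except without the MK-8722 library of passage 7 (0.3167, adjusted p = 0.0104), and *Dhcr7* of the last step of synthesis did not either (0.09 ± 0.11). Leaving out 1 library gave 11 to 17 upregulated members.

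Genes of fatty acid and triglyceride synthesis gave few calls. Of 21 members 3 rose and 1 fell, and 0 fell without the DMSO library of passage 7 or the MK-8722 library of passage 9 or 11. *Fasn* (0.17 ± 0.08), *Acaca* (-0.01 ± 0.06), *Scd1* (0.19 ± 0.13) and *Srebf1* (0.03 ± 0.06), which encode the main synthetic enzymes and their transcription factor, did not pass the test. *Lpin1*, a phosphatidate phosphatase, rose 1.68-fold (log2 fold change 0.75 ± 0.22, adjusted p = 0.0116) with overlapping groups. It was not called without the WT DMSO and MK-8722 libraries of passage 8 or without those of passage 9.

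The lipid droplet and lipolysis list held the largest fold change of the genes named here. *Plin4*, a coat protein of lipid droplets, was at 0.83, 0.784, 0.613 and 0.512 CPM with DMSO and 8.37, 13.6, 12.9 and 10.9 CPM after MK-8722. It rose 16.7-fold from under 1 CPM (log2 fold change 4.06 ± 0.25, adjusted p = 1.88e-11). The coat protein *Plin3* rose 1.66-fold, the triglyceride lipase *Pnpla2* 1.25-fold and the fatty acid binding protein *Fabp3* 2.27-fold, while *Plin2* was at 127 ± 9.11 and 130 ± 7.37 CPM and was not called. *Angptl4*, a secreted inhibitor of lipoprotein lipase, was 4.55-fold lower, from 1.37 ± 0.0952 to 0.3 ± 0.0809 CPM (log2 fold change -2.19 ± 0.25, adjusted p = 5.63e-07). In all, 4 of 13 members rose and 2 fell (1 without the DMSO library of passage 11).

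Mitochondrial gene lists showed small shifts. Of 51 tested entries for a list of 50 nuclear genes of oxidative phosphorylation, 0 rose and 2 fell (median -0.0965). *Atp5g1* of the ATP synthase fell by the larger change (log2 fold change -0.28 ± 0.04, adjusted p = 2.01e-05). In this list 1 fell without the DMSO library of passage 8 or 9. *Atp5g1* was not called without the WT DMSO and MK-8722 libraries of passage 7 or without those of passage 11. Of 25 genes of fatty acid oxidation 1 rose and 4 fell (median -0.115). *Hadhb* of the mitochondrial trifunctional protein was among those that fell (log2 fold change -0.34 ± 0.07, adjusted p = 0.000893). Without the DMSO library of passage 11, 1 member of this list was downregulated, and without that library, the DMSO library of passage 8 or the MK-8722 library of passage 7, 2 were upregulated. *Cpt1a*, the gate to mitochondrial oxidation, was at 0.03 ± 0.06 log2 and not called. Among 17 regulators of mitochondrial biogenesis, the coactivator *Ppargc1b* (log2 fold change 0.93 ± 0.21, adjusted p = 0.00147) and the nuclear receptor *Pparg* (log2 fold change 0.85 ± 0.16, adjusted p = 0.000312) rose from low levels of 2.03 ± 0.634 and 2.98 ± 0.438 CPM, and 1 member fell (0 without the DMSO or the MK-8722 library of passage 9). *Esrra* (0.18 ± 0.05) and *Tfam* (-0.18 ± 0.05) stayed under the fold threshold, and *Ppargc1a*, the best known coactivator of the group, was at 0.209 ± 0.0804 and 0.348 ± 0.284 CPM and not called, other than without the MK-8722 library of passage 11 (1.054 log2, adjusted p = 0.0457).

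Of 32 tested entries for 31 genes of glucose uptake and glycolysis, 5 rose (15.6%) and 2 fell (6.25%), beside 10.3% and 5.87% of all genes tested. The median log2 fold change was -0.017. *Slc2a1*, the glucose transporter GLUT1, was at 113, 110, 103 and 103 CPM with DMSO and 158, 155, 157 and 149 CPM after MK-8722, without overlap (log2 fold change 0.53 ± 0.06, adjusted p = 1.01e-06). *Hk2*, hexokinase 2, rose 1.84-fold (log2 fold change 0.88 ± 0.08, adjusted p = 1.18e-08), *Pfkfb4*, a regulator of phosphofructokinase, 1.52-fold (log2 fold change 0.60 ± 0.10, adjusted p = 6.58e-05) and *Eno2*, an enolase, 2.6-fold (log2 fold change 1.38 ± 0.10, adjusted p = 4.99e-10). The phosphofructokinase subunit *Pfkl* fell (log2 fold change -0.38 ± 0.08, adjusted p = 0.00112). Between 1 and 4 members fell when 1 library was left out, with counts moved by the DMSO library of passage 11 and the MK-8722 library of passage 8. Of 10 targets of the glucose-sensing factors MLX and MondoA, 2 rose (1 without the DMSO library of passage 11 or the MK-8722 library of passage 8) and 3 fell. Besides *Txnip*, its paralog *Arrdc4* (log2 fold change -0.83 ± 0.24, adjusted p = 0.0116) and the MAX partner *Mxd4* (log2 fold change -0.73 ± 0.07, adjusted p = 2.3e-08) were downregulated. *Arrdc4* was not called by limma voom or without the WT DMSO and MK-8722 libraries of passage 11.

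Stress pathways beyond ATF4 had few calls. Of 22 chaperones and unfolded protein response genes, 3 rose and 0 fell (1 without the DMSO library of passage 7). Those that rose included the sensor *Atf6* (log2 fold change 0.63 ± 0.08, adjusted p = 1.11e-06) and the degradation factor *Edem1* (log2 fold change 0.39 ± 0.05, adjusted p = 1.18e-06), while the chaperone *Hspa5* was at 789 ± 54.9 and 771 ± 54.1 CPM and not called. Of 24 NRF2 and oxidative stress genes 1 rose, *Hmox1*, which degrades heme (log2 fold change 0.50 ± 0.10, adjusted p = 0.000413), and 1 fell, *Slc7a11*, whose call depended on single libraries as given above. Iron handling genes gave 2 of 10 upregulated, with *Steap3* the larger, and 1 downregulated. *Steap3* alone was upregulated without the DMSO library of passage 7 or 9 or the MK-8722 library of passage 8, 9 or 11, and 0 were downregulated without the DMSO library of passage 8 or the MK-8722 library of passage 9. The proteasome list had 1 of 30 upregulated and 2 downregulated (median -0.137), and 0 downregulated without the DMSO library of passage 11 or the MK-8722 library of passage 8.

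Growth and division genes had calls chiefly among those of DNA replication, read against the 5.87% of all genes that were downregulated. In such bulk libraries, fewer cells of a state and less RNA per cell cannot be told apart. None of 53 genes of cytosolic ribosomal proteins was called (median -0.0939, lowest -0.2). Of 33 ribosome biogenesis genes 2 rose and 4 fell. Only 0 or 1 rose without the DMSO library of passage 8 or 9 or the MK-8722 library of passage 7 or 11, and 2 fell without the MK-8722 library of passage 8. The falls were led by *Bop1*, a factor of large subunit assembly, at 265, 260, 262 and 264 CPM with DMSO and 192, 184, 193 and 178 CPM after MK-8722 (log2 fold change -0.49 ± 0.05, adjusted p = 1.87e-08). Of 43 DNA replication genes 0 rose and 11 fell (25.6%, median -0.138), and 8 to 14 fell when 1 library was left out. *Tyms*, which makes thymidylate (log2 fold change -0.40 ± 0.04, adjusted p = 1.46e-07), *Rrm2*, a subunit of ribonucleotide reductase (log2 fold change -0.40 ± 0.05, adjusted p = 6.79e-06), *Cdc6*, an origin licensing factor (log2 fold change -0.36 ± 0.05, adjusted p = 3.43e-06), and *Ccne1*, cyclin E1 (log2 fold change -0.36 ± 0.09, adjusted p = 0.00294), fell the most. The summed level of the list was 6734 to 6848 CPM with DMSO and 5997 to 6384 CPM with MK-8722.

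Of 36 mitotic genes 0 rose and 3 fell (8.33%), the kinesins *Kif23* (log2 fold change -0.34 ± 0.06, adjusted p = 5.32e-05) and *Kif11* (log2 fold change -0.32 ± 0.07, adjusted p = 0.0011) and the proliferation marker *Mki67* (log2 fold change -0.33 ± 0.07, adjusted p = 0.000908, with overlapping groups). Leaving out the DMSO library of passage 7 or the MK-8722 library of passage 8 or 9 raised the count to 5 or 6. Among 30 D-type cyclins, CDK inhibitors and p53 targets, 4 rose (13.3%) and 3 fell (10%), beside 10.3% and 5.87% of all genes tested. *Ccnd1*, cyclin D1, fell from 268 ± 18.8 to 193 ± 17.6 CPM (log2 fold change -0.47 ± 0.11, adjusted p = 0.0019), and *Trp53* from 391 ± 12 to 301 ± 15.7 CPM (log2 fold change -0.38 ± 0.05, adjusted p = 2.18e-06). The kinase gene *Plk3* (log2 fold change 0.78 ± 0.11, adjusted p = 7.38e-06) and the BH3-only gene *Pmaip1* (log2 fold change 0.78 ± 0.13, adjusted p = 9.28e-05) rose, and the CDK inhibitor *Cdkn1a* was at 40 ± 9.42 and 42.4 ± 12.7 CPM and not called.

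Clock genes moved both ways. The repressors *Bhlhe40* and *Bhlhe41* rose 2.99-fold and 2.24-fold, with *Bhlhe40* at 14.3, 16.6, 14.8 and 20 CPM with DMSO and 39, 45.3, 50.8 and 61.7 CPM after MK-8722 (log2 fold change 1.58 ± 0.15, adjusted p = 3.35e-08). The activator *Arntl* (log2 fold change -0.55 ± 0.15, adjusted p = 0.00632), the period gene *Per2* (log2 fold change -0.63 ± 0.19, adjusted p = 0.012) and the cryptochrome *Cry2* (log2 fold change -0.34 ± 0.10, adjusted p = 0.0117) fell. *Cry2* was not called without the WT DMSO and MK-8722 libraries of passage 9 or without those of passage 11. Of 18 members 4 rose (22.2%) and 3 fell (16.7%), beside 10.3% and 5.87% of all genes tested. With passage as a block 6 rose and 4 fell.

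Immediate early genes and feedback inhibitors of ERK signalling had 10 of 31 members upregulated (32.3%) and 2 downregulated (6.45%), beside 10.3% and 5.87% of all genes tested. *Dusp4* held 5.32, 5.67, 4.6 and 4.4 CPM with DMSO and 21.3, 24.5, 22.7 and 21 CPM after MK-8722, the treated libraries close together and far above vehicle. The ERK pathway inhibitor *Spry4* (log2 fold change 0.83 ± 0.24, adjusted p = 0.0107), the orphan receptor *Nr4a1* (log2 fold change 0.79 ± 0.13, adjusted p = 7.54e-05) and the AP-1 subunit *Fosb* (log2 fold change 0.71 ± 0.18, adjusted p = 0.00409) rose too, and *Klf2* was 1 of the 2 that fell. Without any 1 of 6 libraries, namely the DMSO libraries of passages 7, 8 and 11 and the MK-8722 libraries of passages 7, 9 and 11, *Klf2* was the 1 downregulated member left. Of 22 serum response and YAP targets 3 rose and 1 fell. *Ankrd1*, a YAP target (log2 fold change 0.77 ± 0.10, adjusted p = 3.5e-06), and *Actg1*, gamma actin (log2 fold change 0.37 ± 0.06, adjusted p = 2.01e-05), were among those that rose, and *Ajuba*, a LIM protein of the Hippo pathway (log2 fold change -0.45 ± 0.05, adjusted p = 9.71e-07), fell.

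Matrix and growth factor lists had calls in both directions. Of 36 collagens and matrix genes 3 rose (8.33%) and 7 fell (19.4%), beside 10.3% and 5.87% of all genes tested. The metalloproteinase inhibitor *Timp3* (log2 fold change 1.08 ± 0.18, adjusted p = 8.42e-05) and the collagen *Col8a1* (log2 fold change 0.77 ± 0.12, adjusted p = 2.52e-05) rose, and the gelatinase *Mmp9* fell from 4.98 ± 0.291 to 2.67 ± 0.503 CPM (log2 fold change -0.90 ± 0.21, adjusted p = 0.00202). Without the DMSO library of passage 9 or 11 or the MK-8722 library of passage 7, 8 or 9, the number downregulated was 3 or 4. With passage as a block 5 members rose and 10 fell. Of 20 genes of TGF-beta and BMP signalling 3 rose (15%) and 6 fell (30%). The BMP antagonist *Grem1* (0.99 ± 0.25 log2, with overlapping groups), the activin subunit *Inhba* (log2 fold change 0.70 ± 0.11, adjusted p = 3.51e-05) and *Tgfb1* (log2 fold change 0.47 ± 0.04, adjusted p = 1.07e-08) rose. The inhibitors of differentiation *Id1* (log2 fold change -0.40 ± 0.09, adjusted p = 0.00199), *Id2* (log2 fold change -0.63 ± 0.09, adjusted p = 5.88e-06) and *Id3* (log2 fold change -0.51 ± 0.05, adjusted p = 3.1e-08), which BMP signals induce, fell. Each was without overlap, as were 81% of all downregulated genes. Without the DMSO library of passage 11, 3 members of the list were downregulated.

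Of the inflammatory genes, *Ptgs2*, cyclooxygenase 2, stood at 21.8, 21.2, 17.2 and 23.1 CPM with DMSO and 51.4, 50.3, 53.6 and 68 CPM after MK-8722, without overlap (log2 fold change 1.42 ± 0.13, adjusted p = 2.77e-08). The chemokine *Cxcl12* rose (log2 fold change 0.57 ± 0.10, adjusted p = 0.00019) and the NF-kappaB inhibitor *Nfkbia* fell (log2 fold change -0.39 ± 0.08, adjusted p = 0.000828). The list of 22 chemokines and cytokines had 4 upregulated (18.2%) and 3 downregulated (13.6%), beside 10.3% and 5.87% of all genes tested. It had 2 upregulated without the DMSO library of passage 7 or 9 or the MK-8722 library of passage 11, and 5 downregulated without the last. Of 40 interferon-stimulated genes, 1 was called, *Ifit2*, at 27.1, 28.3, 28.6 and 39.8 CPM with DMSO and 43.8, 42.2, 48.7 and 76.4 CPM after MK-8722 (log2 fold change 0.77 ± 0.18, adjusted p = 0.00258). With passage as a block 10 members were upregulated. Without the DMSO library of passage 11, 6 members were upregulated and the median was 1.88, and without the MK-8722 library of passage 11, 1 was downregulated and the median was -1.67, beside 0.176 with all 8 libraries.

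Sphingolipid, ganglioside and cholesterol transport genes had 9 of 23 upregulated (39.1%) and 1 downregulated (4.35%), beside 10.3% and 5.87% of all genes tested. The list had 0 downregulated without the DMSO library of passage 11, and 8 or 9 upregulated when 1 library was left out. *Ugcg*, which makes glucosylceramide, was at 66.8, 72.5, 74.7 and 67.8 CPM with DMSO and 105, 104, 120 and 125 CPM after MK-8722 (log2 fold change 0.69 ± 0.08, adjusted p = 3.41e-07). *Sgms2*, a sphingomyelin synthase, rose 1.68-fold (log2 fold change 0.74 ± 0.10, adjusted p = 8.08e-06), and the sterol exporter *Abcg1* 1.51-fold (log2 fold change 0.59 ± 0.14, adjusted p = 0.0024). Its relative *Abca1* was called at 0.86 ± 0.24 log2 (adjusted p = 0.00836), and not without the MK-8722 library of passage 11 (0.623, adjusted p = 0.0568).

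Markers of other cell types were low. The summed level of 12 leukocyte markers was 10.1 to 12.9 CPM with DMSO and 11 to 14 CPM with MK-8722, of which *Cd14* made up most, at 9.16 to 10.5 CPM and 9.88 to 10.7 CPM. *Mpeg1* ranged from 0.0341 to 1.87 CPM with DMSO and from 0.0382 to 2.26 CPM with MK-8722, highest at passage 11 in both groups, the other 10 stayed under 1 CPM, and 2 of these, *Adgre1* and *Tyrobp*, were at 0 in all 8 libraries. The 10 epithelial markers summed to 29.5 to 32.9 CPM and 25.4 to 29.2 CPM, and the 10 muscle and adipocyte markers to 3.03 to 3.73 CPM and 2.51 to 4.47 CPM. The 8 endothelial markers summed to 0.272 to 0.662 CPM with DMSO and 1.4 to 2.11 CPM with MK-8722. The receptor gene *Kdr* was at 0.0922, 0.112, 0.0681 and 0.0602 CPM with DMSO and 0.973, 1.15, 0.991 and 0.681 CPM after MK-8722 (log2 fold change 3.46 ± 0.41, adjusted p = 1.01e-06) and *Vwf* at 0.123, 0.336, 0.102 and 0.271 CPM with DMSO and 0.662, 0.765, 0.735 and 0.394 CPM after MK-8722 (log2 fold change 1.61 ± 0.38, adjusted p = 0.00201), while *Cldn5* was at 0. Neither was called by DESeq2. The part of other cells in the results above was not tested.

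The same treatment was given to *tfeb tfe3* DKO MEFs. Genotype went with the cell line and with the set of passages. Effects of the loss of TFEB and TFE3 and of the line can therefore not be told apart. *Tfeb* was at 2.22, 2.65, 2.19 and 1.95 CPM with DMSO and 1.97, 1.85, 2.2 and 2.09 CPM after MK-8722 in the DKO libraries of passages 8, 9, 10 and 11, against 22.9 ± 1.74 CPM in WT with DMSO. *Tfe3* was at 124 ± 2.11 CPM with DMSO and 116 ± 1.39 CPM after MK-8722 in DKO, no lower than the 120 ± 1.17 CPM of WT, so the gene-level count of *Tfe3* does not show the knockout and the genotype is used as labelled. *Mitf* was at 30.5 ± 4.11 CPM with DMSO in DKO. In DKO, MK-8722 upregulated 843 genes (5.47%) and downregulated 495 (3.21%), in libraries other than those of the WT comparison, although the fit shared its estimate of the spread over all 24. The RNA integrity number was 7.9 for the DKO MK-8722 library of passage 10 and 9.7 to 9.9 for the other DKO libraries used. Of the genes upregulated in WT, 488 were also upregulated in DKO (30.8% of the WT list and 57.9% of the DKO list) and 11 were downregulated. Of those downregulated in WT, 205 were also downregulated in DKO (22.7% and 41.4%) and 6 were upregulated.

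The difference between the responses was tested directly as an interaction over all 15401 genes. The response was lower in DKO for 628 genes (4.08%) and higher for 218 (1.42%). With passage as a block the higher count was 486. Without the DKO MK-8722 library of passage 10 the response was lower for 592 genes and higher for 187. Among the 1583 genes upregulated in WT, 530 (33.5%) had a smaller response in DKO and 1 a larger one. Among the 904 downregulated genes, 97 (10.7%) fell less in DKO and 2 fell more. Both counts share the WT libraries with the lists they were counted in, so they are a description. The CLEAR core lay in the windows of 13.2% of upregulated genes with a smaller response in DKO (51 of 387) and 3.69% of the other upregulated genes (29 of 786).

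The response of *Gnpda1* differed the most of the upregulated genes averaging at least 2 log2 CPM over the 8 WT libraries. In DKO it was at 8.07, 8.58, 6.87 and 6.92 CPM with DMSO and 9.83, 8, 7.91 and 8.38 CPM after MK-8722 (log2 fold change 0.17 ± 0.09; DKO minus WT -1.99 ± 0.12, adjusted p = 1.43e-10). *Renbp* (-1.87 ± 0.44), *Dpp7* (-1.79 ± 0.12), *Dusp4* (-1.72 ± 0.28) and *Cd68* (-1.70 ± 0.27) followed in the size of the difference, and the call for *Renbp* was lost without the DKO DMSO library of passage 9 (-1.691, adjusted p = 0.0795). *Cd68* still rose in DKO, by 0.94 ± 0.18 log2. Among the downregulated genes with the largest differences were *Atoh8* (1.02 ± 0.23), *Peg10* (0.92 ± 0.17), the cytolinker gene *Eppk1* (0.86 ± 0.19) and the phospholipid phosphatase gene *Plpp1* (0.85 ± 0.15). *Plpp1* fell in WT (-0.40 ± 0.11) and rose in DKO (0.45 ± 0.10), whereas *Eppk1* was at 0.23 ± 0.14 in DKO, not called. The fall of *Plpp1* in WT was not called without the WT DMSO and MK-8722 libraries of passage 11.

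The median response in DKO was 0.0756 for V-ATPase genes, 0.109 for hydrolases and 0.0553 for membrane proteins, and the response was smaller in DKO for 14 of 19, 26 of 45 and 14 of 23 members. Upregulated in DKO were 1 of 19 V-ATPase genes, 8 of 45 hydrolases and 5 of 23 membrane proteins. For sterol genes the median in DKO was 0.468, beside 0.482 in WT, with 13 of 25 upregulated in DKO and 0 with a difference called. *Insig1* rose by 1.48 ± 0.24 log2 in DKO (DKO minus WT -0.14 ± 0.33, adjusted p = 0.905). *Klf2* fell by a like amount in DKO (-1.84 ± 0.14; DKO minus WT 0.12 ± 0.20, adjusted p = 0.855), as did *Rhob* (-1.16 ± 0.09) and *Fam13b* (-0.97 ± 0.10). The autophagy list had 10 of 45 members with a smaller response. Mitotic genes had 19 of 36 members with a higher response in DKO, where their median was 0.195, beside -0.12 in WT.

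**Figure D4:**
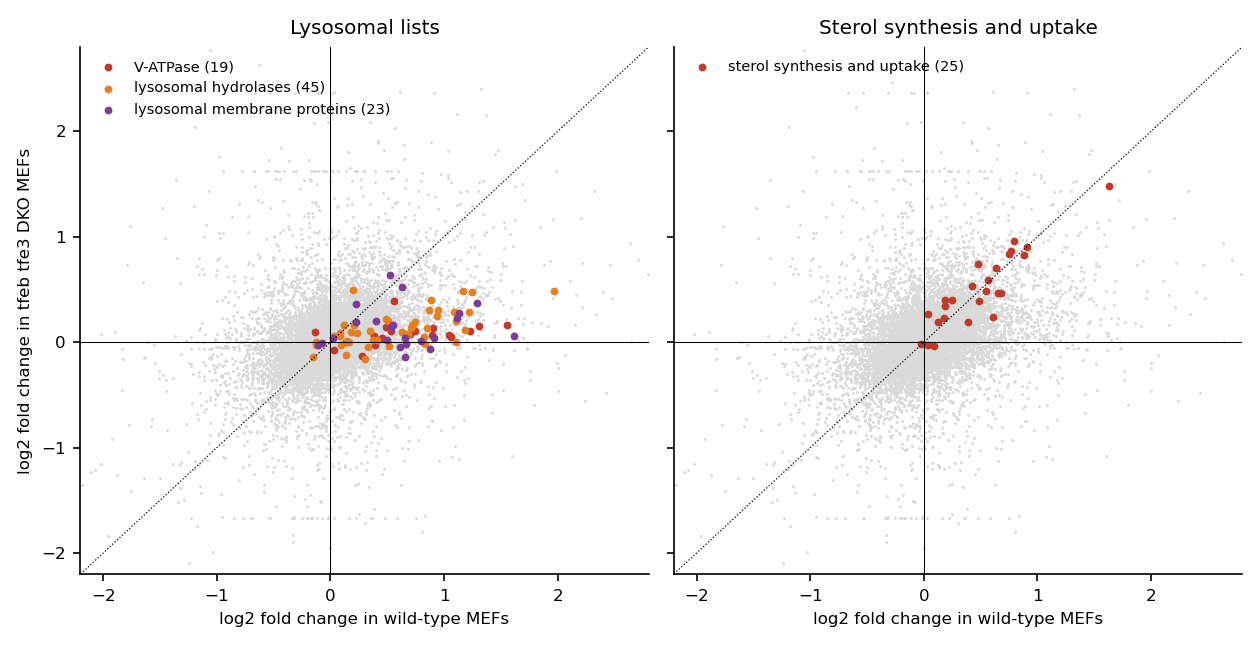
Log2 fold change of MK-8722 over DMSO in WT MEFs (horizontal) and in *tfeb tfe3* DKO MEFs (vertical) for genes tested (grey) and for members of the lysosomal lists (left) and the sterol list (right), with equal responses on the dotted line. The axes are cut, so genes beyond them, such as *Gpnmb*, are not drawn. The medians of the lysosomal lists in DKO lie near the horizontal axis (0.0553 to 0.109), although 1 V-ATPase gene, 8 hydrolases and 5 membrane proteins were upregulated there. The sterol median lies near the dotted line (0.482 in WT, 0.468 in DKO).

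MK-8722 was last set against torin1 in WT MEFs, in a direct contrast of the treated libraries that used no DMSO library. It asks how far activation of AMPK and inhibition of MTOR give the same levels. Levels were higher with MK-8722 for 3083 genes (20%) and lower for 3833 (24.9%). Scaling by library size alone gave 2345 higher and 4621 lower. Of the 1583 genes upregulated over DMSO, 607 were higher than with torin1, 284 lower and 692 not called, and of the 904 downregulated genes 418 were lower, 127 higher and 359 not called. These counts share the MK-8722 libraries with the lists and are a description.

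Among the upregulated genes of at least 2 log2 CPM with the largest differences from torin1 were *Cd300lb*, an immune receptor gene (3.07 ± 0.26 log2), *Msmo1* (3.03 ± 0.18), the lysolipid transporter *Mfsd2a* (2.87 ± 0.14) and the muscle ubiquitin ligase *Trim54* (2.62 ± 0.18). Over DMSO, *Cd300lb* rose from 4.97 ± 0.684 to 12.3 ± 1.69 CPM, *Mfsd2a* from 5.91 ± 0.453 to 7.81 ± 0.525 CPM and *Trim54* from 4.25 ± 0.491 to 9.95 ± 2.07 CPM. The rise of *Mfsd2a* was not called without the WT DMSO and MK-8722 libraries of passage 9 or without those of passage 11. Of the downregulated genes at that level, *Txnip* (-3.78 ± 0.26), *Klf2* (-2.83 ± 0.14), *Afap1l2* (-2.62 ± 0.20), *Atoh8* (-2.19 ± 0.16) and *Ccng2* (-1.69 ± 0.15) were furthest below torin1. *Txnip* was at 82.3, 87.8, 105 and 126 CPM with torin1, above every DMSO library.

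Sterol genes and ATF4 genes set the drugs apart. Of the 25 sterol genes 23 were higher with MK-8722 than with torin1 and 0 lower (median difference 1.21), and of the 35 ATF4 genes 32 were higher and 0 lower (median 1.30), although 8 of the latter were below DMSO. *Ddit4*, for example, was 2.38 ± 0.13 log2 above torin1 and *Slc7a11* 4.03 ± 0.49. Lysosomal lists were closer, with medians of -0.00 for hydrolases, -0.02 for membrane proteins and 0.41 for V-ATPase genes. In the V-ATPase list 11 members were higher and 1 lower than with torin1, in the hydrolase list 6 higher and 11 lower. *Neu1* (1.42 ± 0.06) and *Atp6v0b* (0.76 ± 0.06) were higher with MK-8722, while *Gpnmb* was lower (-0.86 ± 0.22) and *Ctsa* (-0.12 ± 0.06), *Mcoln1* (-0.13 ± 0.06) and *Sqstm1* (-0.12 ± 0.11) were not called.

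**Figure D5:**
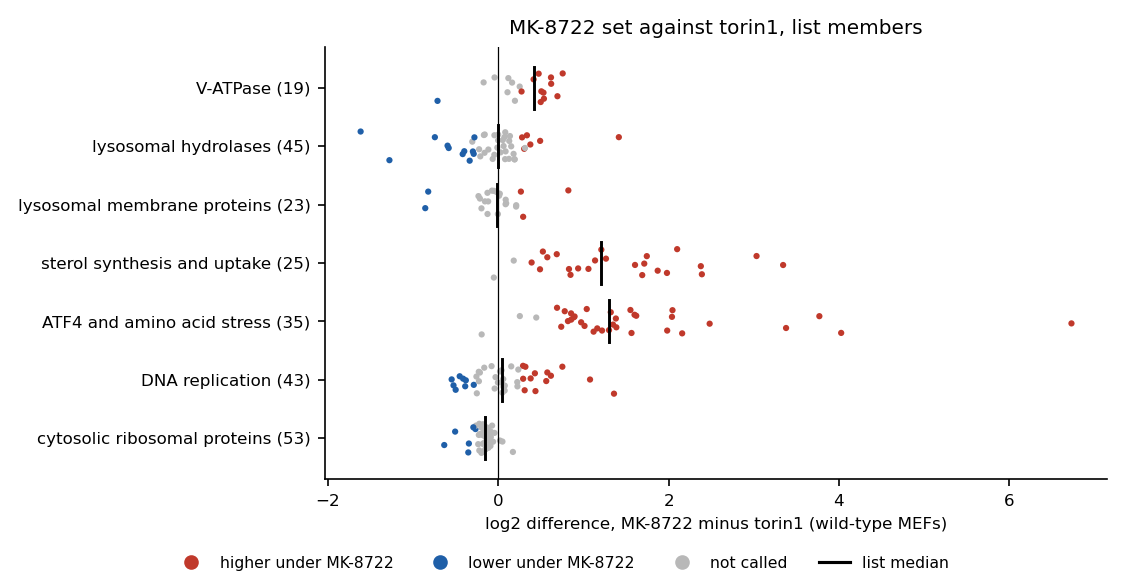
Log2 difference between MK-8722 and torin1 in WT MEFs for the members of 7 gene lists (1 point per gene, number tested in parentheses), red where higher and blue where lower with MK-8722, with a bar at each list's median. Sterol (median 1.21) and ATF4 genes (1.30) lie on the higher side, and lysosomal membrane proteins (-0.02), hydrolases (-0.00) and ribosomal proteins (-0.15) lie near 0.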

How the data were processed

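The 24 libraries were polyadenylated RNA prepared with the Tecan Universal Plus mRNA-seq kit and read as 52-bp paired ends on a NovaSeq instrument. Per the labels and the study's methods, the authors processed the reads with the nf-core/rnaseq workflow, using STAR and Salmon on the mouse build GRCm38 with unique molecular identifiers taken into account, and deposited estimated counts per gene and per transcript and TPM per transcript. No aligner parameter beyond these was used here. Salmon divides ambiguous reads among similar transcripts, so values of near-identical genes (the metallothionein, histone and actin families and *Serpinb9b* among those named) are uncertain. The strand setting of the counting is not given in the sources used here.

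The deposited estimated counts of 55487 genes were rounded to whole numbers. Genes that passed filterByExpr with a minimum count of 10 (15401) were scaled by the trimmed mean of M values (TMM) and tested with edgeR's quasi-likelihood test (edgeR 4.0.16 in its version 3 form, R 4.3.3), with a mean for each of the 6 groups over all 24 libraries. P-values were adjusted by Benjamini-Hochberg over all genes tested. A gene was called where the adjusted p lay under 0.05 and the fold change was 1.2 or more, and the standard error was the absolute log2 fold change divided by the square root of F. CPM values are counts scaled to the TMM-adjusted library size, given as mean ± SD (n = 4), and log2 fold changes as value ± SE. Levels per length are sums over a gene's transcripts of the deposited TPM. The difference between responses was tested as an interaction contrast, and MK-8722 against torin1 as a direct contrast. The study's methods also removed a batch that they do not name. The labels give 1 batch for all libraries, and no batch was removed here. The calls rest on 25185165 to 33332562 estimated counts per library. Libraries of a group differed by cell passage, and nothing says that they came from separate animals or lines, so the p-values measure the spread between these cultures.

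Same-passage WT DMSO and MK-8722 libraries deviated together from their group means, with correlations of 0.317, 0.288, 0.136 and 0.657 for passages 7, 8, 9 and 11, and the labels give the passage. Fits with passage as a block are therefore given beside some of the results they change, and a list without such a value may have changed too. Upregulated members went from 10 to 13 in the immediate early and ERK feedback list and from 15 to 16 in the sterol list. In the TGF-beta and BMP list they went from 3 to 4, and downregulated members from 6 to 7. In the glycolysis list upregulated members went from 5 to 6 and downregulated members from 2 to 3.

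Genes were named by rule: the 12 largest rises and 12 largest falls among called genes averaging 2 log2 CPM or more, no overlap between groups and a symbol that is not a predicted-gene name. Added were up to 4 called members in each direction of each gene list, AMPK subunits and other genes the study measured by other means, and the 5 largest differences from the DKO and torin1 responses in each direction. Some genes that these rules name are not reported here. The lists, rules and members were chosen with earlier results of these data known. Promoter windows, 250 bases before to 50 after a RefSeq start on GRCm38.p6, were matched by symbol for 10577 of the genes tested. Alternatives covered the filter, scaling, test, thresholds, libraries in the fit, blocks and omission of each library, with DESeq2 1.42.0 and limma 3.58.1. The scripts were tested on simulated data with known changes.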

Additional observations from a re-analysis of the deposited data

Results flagged for a closer look

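Single libraries stood apart from the other 3 of their WT group in 24 of 336 groups of 4 (168 genes with values in the text, MK-8722 and DMSO), which is 7.14% by Dixon's 95% criterion for the gap to the nearest library. Chance gives about 1 in 20. Among the DMSO libraries the high values were 24.7 CPM for *Fnip1* at passage 9 against 23.2 to 23.4, 230 CPM for *Npc2* at passage 11 against 126 to 136, 40.1 CPM for *Sesn3* at passage 11 against 34.5 to 35.3, 1.01 CPM for *Fabp3* at passage 8 against 0.572 to 0.613, 39.8 CPM for *Ifit2* at passage 11 against 27.1 to 28.6, 14.5 CPM for *H1f2* at passage 11 against 7.56 to 8.55 and 0.211 CPM for *Lcp1* at passage 11 against 0.0681 to 0.0922 CPM in the rest of the group. The low values with DMSO were 14.1 CPM for *Atp6v0e2* at passage 11 against 16.7 to 17.2, 63.3 CPM for *Tfam* at passage 8 against 66.4 to 66.9, 85.9 CPM for *Atf6* at passage 11 against 97.3 to 99.3, 17.6 CPM for *Arntl* at passage 11 against 20.4 to 20.8 and 4.55 CPM for *Mmp9* at passage 7 against 5.09 to 5.18 CPM. With MK-8722 the high values were 65.4 CPM for *Gm2a* at passage 8 against 61.1 to 61.7, 0.421 CPM for *Angptl4* at passage 8 against 0.251 to 0.272, 63.6 CPM for *Tfam* at passage 7 against 55.9 to 56.5 and 207 CPM for *Ankrd1* at passage 11 against 182 to 184 CPM, and the low values were 255 CPM for *Ctsa* at passage 7 against 286 to 292, 8.47 CPM for *Stradb* at passage 9 against 8.76 to 8.81, 23.5 CPM for *Ctns* at passage 9 against 24.9 to 25, 104 CPM for *Kif23* at passage 11 against 119 to 122, 4944 CPM for *Actg1* at passage 7 against 5496 to 5516, 79.1 CPM for *Tgfb1* at passage 8 against 84.4 to 85.3, 40.1 CPM for *Renbp* at passage 7 against 50.1 to 52.1 and 59.6 CPM for *Dpp7* at passage 7 against 68.2 to 68.8 CPM. Passage 11 held 10 of the 24, passage 7 held 6, passage 8 held 5 and passage 9 held 3.

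The response to MK-8722 differed between genotypes for 67 of the 168 genes, by the test of the difference itself (edgeR's quasi-likelihood test, adjusted p under 0.05, with a difference of 1.2-fold or more). Some of the 168 were named for the size of this difference, and others for their change in WT, which enters it. The count is therefore a description. Over all genes tested the response was lower in DKO for 4.08% and higher for 1.42%. Values are the log2 response in *tfeb tfe3* DKO MEFs minus that in WT MEFs, so that a negative value means a smaller rise or a larger fall in DKO. Among genes of lysosomal hydrolases and membrane proteins and of the V-ATPase, the difference was -0.93 for *Hexa*, -1.10 for *Ctsa*, -1.48 for *Neu1*, -0.77 for *Gla*, -1.06 for *Tpp1*, -3.47 for *Gpnmb*, -1.56 for *Ctns*, -0.92 for *Mcoln1*, -0.86 for *Npc1*, -1.70 for *Cd68*, -1.79 for *Dpp7*, -1.38 for *Atp6v0b*, -1.15 for *Atp6v1d*, -1.12 for *Atp6ap2* and -1.02 for *Atp6v0d1*. For genes of autophagy, folliculin and MTORC1 control it was -1.41 for *Flcn*, -1.27 for *Fnip1*, -0.84 for *Fnip2*, -0.65 for *Sqstm1*, -0.74 for *Tecpr1*, -0.66 for *Map1lc3b*, -0.55 for *Gabarap*, -0.68 for *Lamtor3*, -0.65 for *Lamtor1*, -0.44 for *Tsc1* and 0.44 for *Sesn3*. For genes of FOXO and insulin signalling it was -0.38 for *Irs2* and 0.70 for *Ccng2*. For genes of lipid droplets, fatty acid use and glycolysis it was -2.47 for *Plin4*, -0.42 for *Plin3*, -0.46 for *Plin2*, -1.42 for *Fabp3*, -1.53 for *Slc27a1*, -0.49 for *Cpt1a*, -0.74 for *Ugcg*, 0.85 for *Plpp1* and -0.79 for *Eno2*. For genes of stress, metal and redox responses it was -1.14 for *Ddit3*, -0.55 for *Ppp1r15a*, -0.59 for *Hmox1*, -1.48 for *Steap3*, -1.52 for *Mt1*, -0.82 for *Crebrf* and -2.06 for *Xdh*. For genes of the cell cycle and transcription it was 0.27 for *Rrm2*, 0.32 for *Kif23*, 0.40 for *Mki67*, 0.39 for *Kif11*, 0.65 for *Mxd4*, -1.05 for *Bhlhe41*, 1.02 for *Atoh8* and 0.92 for *Peg10*. For genes of amino sugar metabolism it was -1.87 for *Renbp*, -1.99 for *Gnpda1* and -1.38 for *Amdhd2*. For signalling, adhesion and other genes it was -1.72 for *Dusp4*, -0.49 for *Ankrd1*, -0.90 for *Ptgs2*, -1.0 for *Cxcl12*, -4.75 for *Kdr*, -1.47 for *Ccn3*, -0.78 for *Gask1b*, 0.72 for *Nedd9*, 0.86 for *Eppk1*, -2.58 for *Lcp1*, -2.77 for *Wnt7a* and -2.19 for *Serpinb9b*. Leaving out 1 library at a time ended the call for *Ankrd1*, *Ccng2* and *Kdr* in 12 of 16 omissions, for *Nedd9* in 13 and for *Irs2* in 5. It also ended the call for *Rrm2* and *Sesn3* in most, for *Wnt7a* in several and for *Renbp* in 1. The adjusted p in these omissions was 0.0503 to 0.134. The difference for *Kdr* was also not called without the filter or by DESeq2, that for *Lcp1* not by DESeq2, and that for *Ankrd1* not with the replicate number as a block.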

How the results depend on the processing

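The threshold moved the counts most. Against 1583 genes upregulated and 904 downregulated, adjusted p alone gave 2432 and 2343, a test against a fold change of 1.2 gave 766 and 190, a fold change of at least 1.5 gave 593 and 248, and a fold change of at least 2 gave 239 and 77. Lists with more members up than down numbered 22, and 13 at a fold change of at least 2. The other settings kept the counts of up- and downregulated genes in WT within 1.5 times. DESeq2's Wald test gave 1540 and 918, DESeq2 size factors 1561 and 931, scaling by library size alone 1696 and 786, limma voom 1608 and 939, no filter 1538 and 831, and the 8 libraries alone 1606 and 738. Leaving out 1 library at a time gave 1475 to 1575 upregulated and 802 to 1085 downregulated genes, and 17 to 25 such lists. It gave 167 to 270 genes with a larger and 547 to 698 with a smaller response in DKO, and 2990 to 3327 higher and 3504 to 3770 lower with MK-8722 than with torin1.

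With passage as a block, 1791 genes were upregulated and 1122 downregulated, 486 in place of 218 had a larger response in DKO and 906 a smaller one. The cause was not tested. The replicate numbers of the labels did not pair the libraries (correlations of deviations 0.248, 0.657, 0.0774 and 0.00881 for numbers 1 to 4). With the replicate number as a block the counts were 1592 and 928, with 225 larger and 638 smaller responses in DKO, and 3083 higher and 3840 lower levels than with torin1.

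Of the 168 genes with values in the text 141 were called, and 137 of them kept the call in each of 8 single-library omissions. Over those and 17 other settings at the same thresholds 127 kept it, and 0 changed direction. Values near 1 CPM or below rest on few reads, so small differences in such genes were not detectable at this depth.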

Other observations

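Some of the largest changes were in genes too weakly counted for the rule that chose the genes above. The following 4 were picked after their values were seen, among the 26 genes that rose at least 4-fold. *Xdh*, xanthine dehydrogenase of purine breakdown, was at 0.43, 0.336, 0.375 and 0.813 CPM with DMSO and 1.95, 3.06, 2.62 and 3.51 CPM with MK-8722 at passages 7, 8, 9 and 11 (log2 fold change 2.48 ± 0.29, adjusted p = 8.78e-07). Treated and vehicle libraries did not overlap. With torin1 *Xdh* was at 3.73 to 5.94 CPM, above all 4 MK-8722 libraries. In *tfeb tfe3* DKO MEFs it was at 1.96 to 3.61 CPM already with DMSO and at 2.73 to 4.39 CPM with MK-8722, and the log2 fold change there was 0.42 ± 0.23 (adjusted p = 0.226).

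*Serpinb9b*, a serine protease inhibitor of a family of close copies, was at 1.54, 1.83, 1.5 and 2.02 CPM with DMSO and 5.92, 7.76, 7.03 and 8.1 CPM with MK-8722 (log2 fold change 2.06 ± 0.22, adjusted p = 2.54e-07). In DKO it did not pass the test (log2 fold change -0.12 ± 0.23, adjusted p = 0.765). *Lcp1*, an actin-bundling protein known from blood cells, stood at 0.0922, 0.0747, 0.0681 and 0.211 CPM with DMSO and 1.63, 1.38, 0.927 and 1.68 CPM with MK-8722 (log2 fold change 3.56 ± 0.36, adjusted p = 8.28e-08). *Wnt7a*, a secreted WNT ligand, was at 0.277, 0.224, 0.0681 and 0 CPM with DMSO and 2.41, 2.22, 1.73 and 0.645 CPM with MK-8722 (log2 fold change 3.60 ± 0.66, adjusted p = 0.000209). Its level in DKO was higher than in every WT library, at 6.48 to 10.1 CPM with DMSO and 11.8 to 17.2 CPM with MK-8722. The vehicle levels of *Lcp1* and *Wnt7a* in WT rest on few reads.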
